A study of Homo sapiens with 12 samples.

Results

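Toll-like receptors (TLRs), 3 proteins that relay their signal and TRIM31, a ubiquitin ligase, were followed in HaCaT cells, human keratinocytes that grow as an immortal line. The list named 8 genes, and members were the rows of the deposited count table that carry one of these symbols. The table of 16271 genes held 7 of them, TLR1, TLR6, TLR3, MYD88, IRAK1, TRAF6 and TRIM31, and TLR2 was not analysed here. TLR1 and TLR6 had equal counts in every library and were taken as 1 signal, which leaves 6 signals. Cells with a knockout of VDR (VDR KO), which encodes the vitamin D receptor, were compared with wild type (WT) cells. TRIM31, TLR3 and the shared signal of TLR1 and TLR6 were higher in VDR KO cells, while MYD88 and IRAK1 were lower. TRAF6 was lower in VDR KO cells among hormone-treated libraries. With the hormone, 1 of the 6 signals passed the test in WT cells, where 24.5% of all genes tested did. In VDR KO cells 0 passed, where 2.55% of all genes did. These calls are a description, since the list was drawn up with results of these libraries known.

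Total RNA was sequenced from 4 groups of 3 libraries. These were VDR KO cells given 1,25(OH)2D3, the hormone made from vitamin D, for 8 h, VDR KO cells left untreated, WT cells treated in the same way and WT cells left untreated. The sources used here give neither the dose, the vehicle, the kind of edit nor the number of KO clones, so the loss of VDR and any other difference between the cell populations cannot be told apart. Nothing says whether libraries of a group came from separate cultures, and p-values then measure the spread between libraries, which may be technical.

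TLRs are membrane receptors of innate immunity that recognise molecules of microbes. TLR1 and TLR6 each pair with TLR2 at the cell surface to bind bacterial lipopeptides, and TLR3 binds double-stranded RNA in endosomes. Most TLRs and the receptors of the interleukin 1 family bind MYD88, which gathers IRAK kinases and then the ubiquitin ligase TRAF6 to activate NF-kB, whereas TLR3 signals through TICAM1. Keratinocytes use these receptors to sense microbes and damage at the skin surface.

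Library totals were 11.49 to 15.99 M (1e6) counts, and levels are CPM (counts per 1e6 of a library's total) scaled by TMM, a normalisation for composition. CYP24A1, a textbook target of the hormone, averaged 12.2 CPM in treated and 16.9 CPM in untreated VDR KO cells, against 1676 CPM in treated and 48.0 CPM in untreated WT cells. RNA of VDR, the targeted gene, was not lost in the cells labelled as knockout, at 82.8 CPM in treated and 77.6 CPM in untreated VDR KO cells, against 70.9 CPM in treated and 103 CPM in untreated WT cells. It was higher in VDR KO cells treated (log2 fold change 0.22 ± 0.07, adjusted p = 0.00796) and lower untreated (-0.41 ± 0.07, adjusted p = 5.03e-05, both edgeR). The counts of VDR therefore do not check the label, and the protein was not measured here. CYP24A1 rose with the hormone in WT cells (log2 fold change 5.13 ± 0.16, edgeR adjusted p = 7.34e-11). In VDR KO cells CYP24A1 did not pass (-0.47 ± 0.15, edgeR adjusted p = 0.106), so its rise was seen in WT cells only. All 8 keratinocyte markers examined were in the table, with summed levels of 1369.5 to 1549 CPM in treated and 1602 to 1816 CPM in untreated VDR KO libraries, against 2605 to 2630.3 CPM in treated and 2879 to 3326 CPM in untreated WT libraries. Of 9 leukocyte markers the table held CD68, which had 3.56 to 5.40 CPM in VDR KO and 7.10 to 15.1 CPM in WT libraries, and the others were not analysed here. Of 5 fibroblast markers the table held COL1A1 and COL3A1. Their sum was 1.73 to 6.18 CPM in treated and 3.61 to 4.20 CPM in untreated VDR KO libraries. In WT libraries it was 2.50 to 10.6 CPM treated and 1.83 to 19.7 CPM untreated, and the highest value was that of replicate 3 of the untreated group. CDH5, of endothelium, had 2.62 to 8.19 CPM and PMEL, of melanocytes, 0.515 to 1.56 CPM over all libraries. The summed keratinocyte level and CD68 move with genotype, and the part of these markers in the results was not tested. Single keratinocyte markers are not given by group here and need not all follow the sum. In bulk RNA, fewer cells of a type and less RNA per cell cannot be told apart. Replicate 3 of the untreated WT group stood apart from its group, at -32.5 on the first principal component against -54.3 and -55.7. The untreated genotype differences of TRIM31, TLR3, MYD88, IRAK1 and TRAF6 are given with and without it. Those of other genes are given with it only.

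The list was drawn up with results of these libraries known, and no record says which values chose it. The differences between VDR KO and WT cells are therefore given as a description, with no test, as log2 fold changes with their standard error (SE, n = 3 libraries per group) from edgeR's quasi-likelihood fit of all genes.

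TLR1 and TLR6, the partners of TLR2, were close to undetected in WT cells. The shared row held 21, 27 and 43 counts in treated VDR KO libraries and 15, 16 and 42 counts in untreated VDR KO libraries, against 0, 1 and 1 counts in treated WT libraries and 0 counts in each untreated WT library. Every VDR KO library was above every WT library, and among VDR KO libraries replicate 3 was the highest under both treatments. On the CPM scale the VDR KO libraries had 1.58, 2.22 and 3.40 CPM treated and 0.966, 1.20 and 2.52 CPM untreated. Untreated, 73 counts in VDR KO cells against 0 in WT cells gave a level at least 18.4-fold higher, with the WT group set at 3 counts in all, the floor, which stands for 0.0873 CPM. Treated, 91 counts against 2 gave a ratio of 46.4, with an exact (Clopper-Pearson) 95% interval of 12.5 to 389. Floor and interval cover counting error only. This signal passed the filter on low counts through the VDR KO groups alone.

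On GRCh38 (GENCODE v29), TLR1 lies on the minus strand at chr4:38790677-38856817 and TLR6 on the same strand at chr4:38823715-38856817, inside the span of TLR1. Both annotations start at the same base, and their exons have 57 bases in common, the first exon, from 38856761 to 38856817. That is 1.26% of the exonic bases of TLR1 and 0.944% of those of TLR6. The sources used here do not say how reads were counted so that both rows came out equal, so the 2 receptors cannot be told apart, and a level per length was not computed for them.

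**Figure D1:**
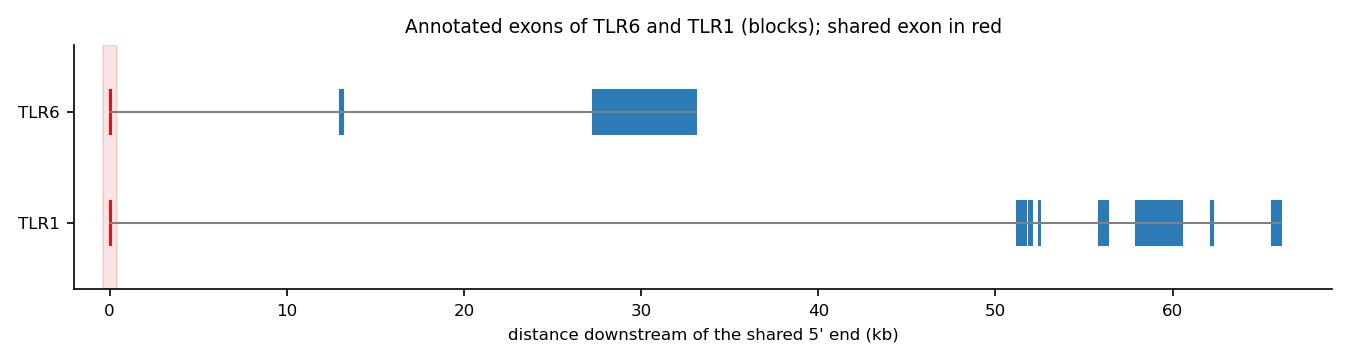
Annotated exons of TLR6 (upper row) and TLR1 (lower row) as blocks along the distance downstream of their common 5′ end, in kb, with grey lines for introns. The first exon, in red, is where the 2 genes share 57 exonic bases, and the blue exons of one gene share no bases with those of the other.

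TLR3, the receptor for double-stranded RNA, was low in all groups and higher in VDR KO cells. It had 7.08, 6.24 and 5.94 CPM in treated and 5.80, 4.95 and 6.36 CPM in untreated VDR KO libraries, against 1.34, 2.11 and 1.65 CPM in treated and 1.38, 2.28 and 2.37 CPM in untreated WT libraries. The lowest VDR KO library was above the highest WT library, and the treated and untreated libraries of each genotype overlapped. The log2 fold change between VDR KO and WT cells was 1.91 ± 0.21 treated (3.76-fold) and 1.51 ± 0.21 untreated (2.84-fold, and a log2 value of 1.64 without replicate 3 of the untreated WT group). The gene lies on the plus strand at chr4:186069152-186088069. Its promoter (RefSeq, GRCh38.p14, chr4:186068906-186069205, plus strand, from 250 bases before to 50 bases after the start) is shown because TLR3 is a gene that interferon is known to raise. Capitals mark a match, read on the opposite strand, to the core of the interferon-stimulated response element, 2 GAAA repeats set 2 bases apart.
TLR3 promoter: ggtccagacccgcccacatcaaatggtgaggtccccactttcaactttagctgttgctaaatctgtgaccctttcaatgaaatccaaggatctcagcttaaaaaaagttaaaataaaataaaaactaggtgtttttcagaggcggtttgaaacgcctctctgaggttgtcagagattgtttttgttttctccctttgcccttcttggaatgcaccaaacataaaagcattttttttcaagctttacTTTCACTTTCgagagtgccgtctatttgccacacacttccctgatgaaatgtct
This motif, searched on both strands, was in 3.57% of all 35116 promoters of the same length, and the match starts 4 bases before the annotated start. Among the members it was also found in the promoter of MYD88, which was lower in VDR KO cells.

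MYD88, the adaptor of most TLRs, was lower in VDR KO cells and lowest where these had been treated. It had 8.13, 9.11 and 8.63 CPM in treated and 11.5, 12.1 and 11.6 CPM in untreated VDR KO libraries, against 17.8, 15.4 and 18.8 CPM in treated and 18.9, 17.7 and 14.3 CPM in untreated WT libraries. All 6 VDR KO libraries were below all 6 WT libraries, and in VDR KO cells the treated libraries were below the untreated ones without overlap. The log2 fold change between VDR KO and WT cells was -1.01 ± 0.12 treated and -0.53 ± 0.12 untreated (-0.65 without replicate 3 of the untreated WT group, its lowest library). MYD88 lies on the plus strand at chr3:38138478-38143022.

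IRAK1, a kinase that MYD88 recruits, had 39.5, 40.5 and 42.9 CPM in treated and 44.9, 41.0 and 43.4 CPM in untreated VDR KO libraries, against 92.9, 97.1 and 84.6 CPM in treated and 77.8, 85.0 and 66.1 CPM in untreated WT libraries. The VDR KO libraries lay close together, all below the WT libraries. The log2 fold change between VDR KO and WT cells was -1.16 ± 0.09 treated and -0.82 ± 0.09 untreated (-0.92 without replicate 3 of the untreated WT group, its lowest library). The gene is on the minus strand at chrX:154010500-154019980. Its counts equalled those of MIR718, a microRNA gene that shares 61 of its 70 bases with the start of IRAK1, so reads of the 2 genes cannot be told apart.

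TRAF6, the ubiquitin ligase that acts after the IRAK kinases, varied least among these members, with group means of 38.4 to 51.8 CPM. It had 36.8, 40.9 and 37.4 CPM in treated and 48.4, 46.0 and 44.2 CPM in untreated VDR KO libraries, against 51.2, 50.2 and 54.0 CPM in treated and 42.8, 49.98 and 55.8 CPM in untreated WT libraries. Treated VDR KO libraries were below those of every other group, and the untreated libraries of the 2 genotypes overlapped. The log2 fold change between VDR KO and WT cells was -0.43 ± 0.09 treated, and untreated it was -0.10 ± 0.09 (-0.0098 without replicate 3 of the untreated WT group), a value whose sign turned with library size alone and with limma. TRAF6 is on the minus strand at chr11:36487027-36510272.

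**Figure D2:**
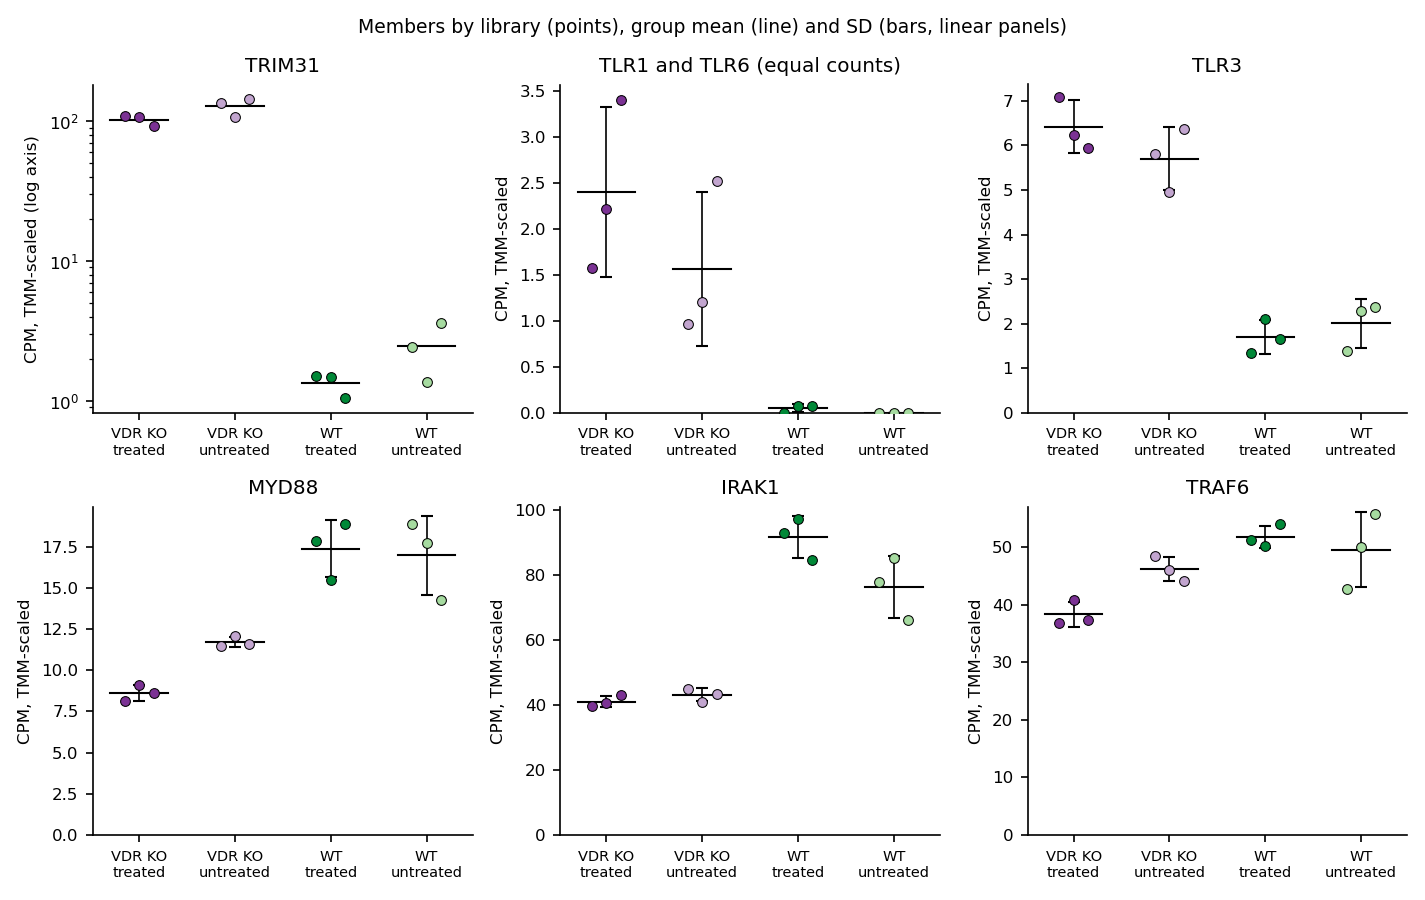
Level of each member in every library, in TMM-scaled CPM, for VDR KO treated, VDR KO untreated, WT treated and WT untreated cells, with a log axis for TRIM31 and linear axes from 0 for the others. Points are libraries, horizontal lines group means and bars SD (n = 3). TRIM31, TLR3 and the shared signal of TLR1 and TLR6 stand higher in both VDR KO groups. MYD88 and IRAK1 stand lower there, and TRAF6 lower in treated VDR KO cells.

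IRAK1 and TRAF6 are known targets of miR-146a, a microRNA that NF-kB induces and that dampens TLR signals. Its host gene, labelled hsa-mir-146a in the table (MIR3142HG, plus strand, chr5:160438594-160487426), was singled out after its values were seen. It had 121, 133 and 118 CPM in treated and 112, 108 and 124 CPM in untreated VDR KO libraries, against 8.75, 9.28 and 8.71 CPM in treated and 14.998, 13.4 and 15.5 CPM in untreated WT libraries. Every VDR KO library was far above every WT library. The host gene was 13.9-fold higher in VDR KO than WT cells treated (log2 fold change 3.80 ± 0.09) and 7.81-fold higher untreated (2.97 ± 0.09). With the hormone it fell in WT cells (-0.72 ± 0.10, Benjamini-Hochberg adjusted p = 0.000158 in edgeR's quasi-likelihood test), and in VDR KO cells its log2 change was 0.12 ± 0.08 (adjusted p = 0.391).

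The mature microRNA and its seed matches after the stop codon are shown because the host gene differed between the genotypes, as did IRAK1 and, in treated cells, TRAF6. Sequences are written 5′ to 3′. The microRNA is from RefSeq (GRCh38.p14, chr5:160485372-160485393, plus strand), with its seed, bases 2 to 8, in capitals. The sites are from GENCODE v29 transcripts IRAK1-203 and TRAF6-202, with the bases that pair with the seed in capitals.
hsa-miR-146a-5p: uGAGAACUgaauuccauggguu
IRAK1 site 1, chrX:154011812-154011834, minus strand: aaatccggaagtcaaAGTTCTCa
IRAK1 site 2, chrX:154011796-154011818, minus strand: gttctcatggtcagaAGTTCTCa
TRAF6 site 1, chr11:36489358-36489380, minus strand: tgctctagaaagttgAGTTCTCa
TRAF6 site 2, chr11:36489293-36489315, minus strand: tccttggaaaacttaAGTTCTCa
TRAF6 site 3, chr11:36488559-36488581, minus strand: aatatcgtggaatctAGTTCTCa
The stretches shown for IRAK1 sites 1 and 2 overlap. The bases in capitals start 40 and 56 bases after the stop codon in IRAK1. In TRAF6 they start 473, 538 and 1272 bases after the stop codon. The longest coding transcripts of MYD88, TLR3 and TRIM31 held 0 matches there, in 1736, 3196 and 639 bases. The stretch searched was 1359 bases in IRAK1 and 2811 bases in TRAF6. TLR1 and TLR6 were not searched, and the share of all transcripts with such a match was not computed. The table also holds a row of MIR146A itself, with 10, 6 and 7 counts in treated and 7, 4 and 10 counts in untreated VDR KO libraries, against 0 counts in each treated and 0, 2 and 0 counts in the untreated WT libraries. All VDR KO libraries were above all WT libraries in this row, at very few counts. Neither row was taken as a measure of the mature microRNA, and its part in the levels of IRAK1 and TRAF6 was not tested.

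**Figure D3:**
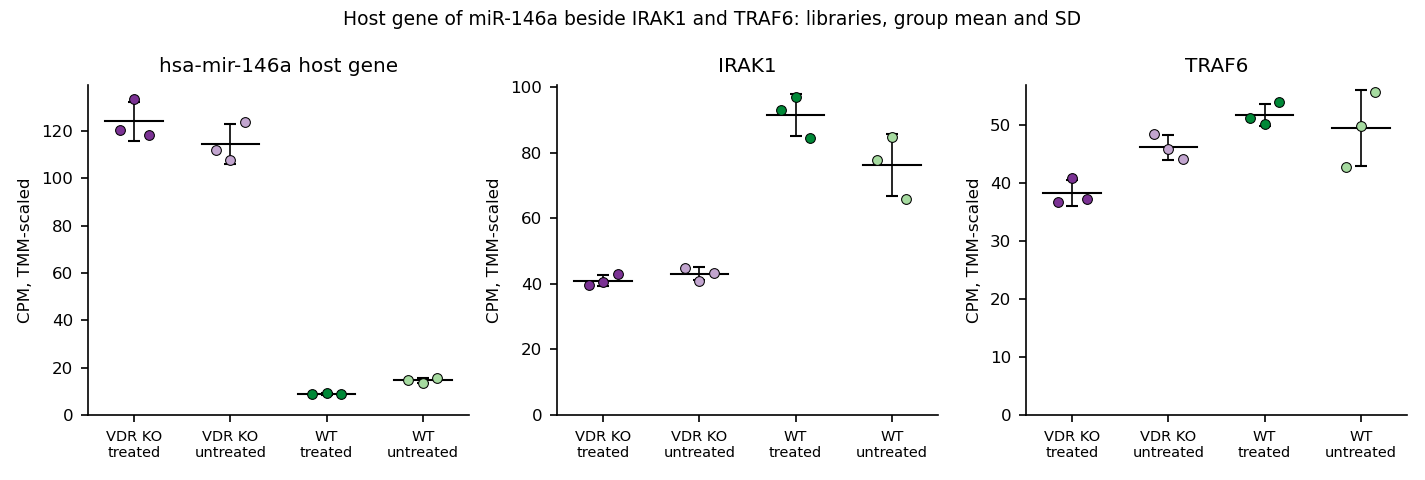
Levels of the host gene of miR-146a, IRAK1 and TRAF6 in TMM-scaled CPM, by library (points), with group means (lines) and SD (bars, n = 3), from axes that start at 0. The host gene sits at 108 to 133 CPM in VDR KO libraries and at 8.71 to 15.5 CPM in WT libraries, where IRAK1 is the higher.

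TRIM31 is a ubiquitin ligase known to act on MAVS, the adaptor of cytosolic RNA sensors, and on NLRP3, the sensor of an inflammasome. Among members counted in every library it had the widest gap between genotypes. It had 108.5, 108 and 92.4 CPM in treated and 135, 107 and 143 CPM in untreated VDR KO libraries, against 1.498, 1.48 and 1.05 CPM in treated and 2.41, 1.37 and 3.63 CPM in untreated WT libraries. Counts were 1167 to 2386 in each VDR KO library and 14 to 43 in each WT library, and no libraries of the 2 genotypes came near each other. TRIM31 was 76.2-fold higher in VDR KO than WT cells treated (log2 fold change 6.25 ± 0.22) and 51.4-fold higher untreated (5.68 ± 0.21, and 6.07 without replicate 3 of the untreated WT group). Of the 14676 genes tested, 13 had a larger log2 fold change than TRIM31 between treated and 7 between untreated cells. The 43 other genes of the TRIM name ranged from -1.82 (TRIM47) to 2.42 (TRIM6) treated and from -1.53 (TRIM62) to 3.23 (TRIM6) untreated.

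Per kb of exon, TRIM31 went past the other members in VDR KO cells and was among the lowest in WT cells. It stood at 29.1 CPM per kb in treated and 36.4 in untreated VDR KO cells, against 0.380 in treated and 0.699 in untreated WT cells. IRAK1 stood at 10.2 and 10.8 CPM per kb in treated and untreated VDR KO cells, against 22.9 and 19.1 in treated and untreated WT cells. TLR3 stayed below 1 CPM per kb in every group. In WT cells the order of levels per kb was IRAK1, TRAF6, MYD88, TRIM31 and TLR3 under both treatments, and the libraries of TRIM31 and TLR3 overlapped on this scale where WT cells were treated.

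TRIM31 lies on the minus strand at chr6:30102897-30113106 in the region of the major histocompatibility complex. On the opposite strand, TRIM31-AS1 shares 174 exonic bases with it, 4.92% of those of TRIM31. The sources used here do not say whether counting used strand, so reads from these shared bases cannot be told apart. The promoter (RefSeq, GRCh38.p14, chr6:30113041-30113340, minus strand, from 250 bases before to 50 bases after the start) is shown because NF-kB, the end point of the TLR pathway, has a consensus match in it, marked by capitals.
TRIM31 promoter: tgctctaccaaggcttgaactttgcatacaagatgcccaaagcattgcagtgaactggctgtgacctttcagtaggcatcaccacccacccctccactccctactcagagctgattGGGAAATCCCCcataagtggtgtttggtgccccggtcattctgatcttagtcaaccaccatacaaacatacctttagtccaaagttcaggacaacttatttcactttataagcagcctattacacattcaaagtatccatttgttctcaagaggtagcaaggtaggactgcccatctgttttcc
The motif was matched by its degenerate NF-kB consensus on both strands, and the capitals cover 3 overlapping matches, the first 134 bases before the start. At least 1 match was in 11.3% of all promoters of this length, and among the members IRAK1, which was lower in VDR KO cells, also had one. The motif of AP-1, another transcription factor, was also searched. It was in 7.71% of all promoters and, among those of the members examined, in that of IRAK1 only. The part of these motifs in the levels was not tested. The paired repeat bound by VDR with its partner RXR (DR3) was in 0.251% of all promoters and in 0 of the members' promoters examined. No promoter of TLR1 was examined.

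The genes most like TRIM31 over the 12 libraries, by Pearson's r of log2 CPM, were RP11-191G24.1 (0.996), RP11-286B14.2 (0.996), PIK3R3 (0.996), SKA2 (0.995) and CIITA (0.995). CIITA, the master activator of MHC class II genes, averaged 65.4 CPM in treated and 61.3 CPM in untreated VDR KO cells, against 8.84 CPM in treated and 11.9 CPM in untreated WT cells. Those most like TLR3 were CTD-2012J19.1 (0.990), CBR3-AS1 (0.990), FBXO16 (0.990), TMEM168 (0.987) and AC073043.1 (0.986). With TRIM31, 1634 genes had an r above 0.95, and with TLR3, 953. The 12 libraries form 2 groups by genotype, a step that all of these genes share, so each r is a description with no test.

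Of the 6 signals, 6 had an adjusted p below 0.05 between treated VDR KO and WT cells, 3 higher and 3 lower, where 75.9% of all genes tested did (38.4% higher, 37.4% lower). Between untreated cells, 5 did, 3 higher and 2 lower, where 69.7% of all genes did (35.5% higher, 34.2% lower). Libraries of the 2 genotypes did not overlap for 6 of 6 signals treated and 5 of 6 untreated, against 80.9% and 69.1% of all genes. Nothing is read from these counts, since the list may have been chosen on them. The signal of TLR1 and TLR6, counted among the higher ones, also passed the filter through the VDR KO groups alone.

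Whether the hormone changed these genes was tested in each genotype over all genes, by edgeR's quasi-likelihood test with Benjamini-Hochberg adjustment. The list may have been chosen on these values too. The members' p-values here, and for the difference of the responses, are therefore a description. In WT cells 1 of 6 signals passed, against 24.5% of all genes (11.5% higher, 13.0% lower), and 0 had groups without overlap, against 39.2% of all genes. This was IRAK1, higher in treated cells by a log2 fold change of 0.26 ± 0.09 (adjusted p = 0.0374), with overlapping libraries. The call was lost without replicate 1 or 3 of the untreated group (adjusted p = 0.0538 and 0.0982) and without replicate 1 or 2 of the treated group (adjusted p = 0.105 and 0.122). TRIM31 had a log2 change of -0.89 ± 0.34 (adjusted p = 0.0694), which was -0.50 without replicate 3 and -1.17 without replicate 2 of the untreated group (adjusted p = 0.354 and 0.00663). DESeq2 gave it an adjusted p of 0.0101. TLR3 (-0.24 ± 0.25), TRAF6 (0.06 ± 0.09) and MYD88 (0.04 ± 0.12) did not pass, and TLR1 and TLR6 were at or under the floor in both WT groups.

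In VDR KO cells 0 of 6 signals passed, against 2.55% of all genes (0.913% higher, 1.64% lower). Without adjustment, the edgeR fit gave 3 of the 6 a p below 0.05, and 3128 of all 14676 genes tested. DESeq2 called 0 and limma 1, and a fit of the compared groups alone called 2, MYD88 and TRAF6 (adjusted p = 0.0194 and 0.0361), beside 1775 of all genes where the fit of 12 libraries called 374. Leaving out 1 VDR KO library gave 9 to 278 of all genes and 0 signals. The gene limma called was MYD88, whose treated libraries did not overlap the untreated ones (log2 change -0.44 ± 0.12, edgeR adjusted p = 0.0603). TRAF6 also did not overlap (-0.27 ± 0.09, adjusted p = 0.106), so 2 of 6 signals had separate groups, against 31.6% of all genes. The log2 change was -0.32 ± 0.14 for TRIM31 (adjusted p = 0.205), 0.17 ± 0.18 for TLR3 (adjusted p = 0.633), -0.07 ± 0.09 for IRAK1 (adjusted p = 0.685) and 0.59 ± 0.37 for TLR1 and TLR6 (adjusted p = 0.373).

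The difference between the 2 responses, VDR KO minus WT, passed for 1 of 6 signals, against 26.3% of all genes (13.8% higher, 12.5% lower). This was MYD88 (-0.48 ± 0.17, edgeR adjusted p = 0.0472), and the call was lost without any 1 VDR KO library (adjusted p = 0.0639 to 0.104), without replicate 3 of the untreated WT group (0.0856), without replicate 1 or 3 of the treated WT group (0.0905 and 0.110), and with DESeq2 (0.0733). The difference was -0.34 ± 0.13 for IRAK1 (adjusted p = 0.0595), -0.33 ± 0.13 for TRAF6 (adjusted p = 0.0637), 0.57 ± 0.36 for TRIM31 (adjusted p = 0.274) and 0.41 ± 0.31 for TLR3 (adjusted p = 0.355). Without replicate 3 of the untreated WT group TRAF6 passed (-0.44, adjusted p = 0.0064), and without its replicate 2 IRAK1 (-0.42, adjusted p = 0.0172) and TRIM31 (0.85, adjusted p = 0.0440) did. Without replicate 3 of the treated WT group IRAK1 also passed (-0.41, adjusted p = 0.0466).

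**Figure D4:**
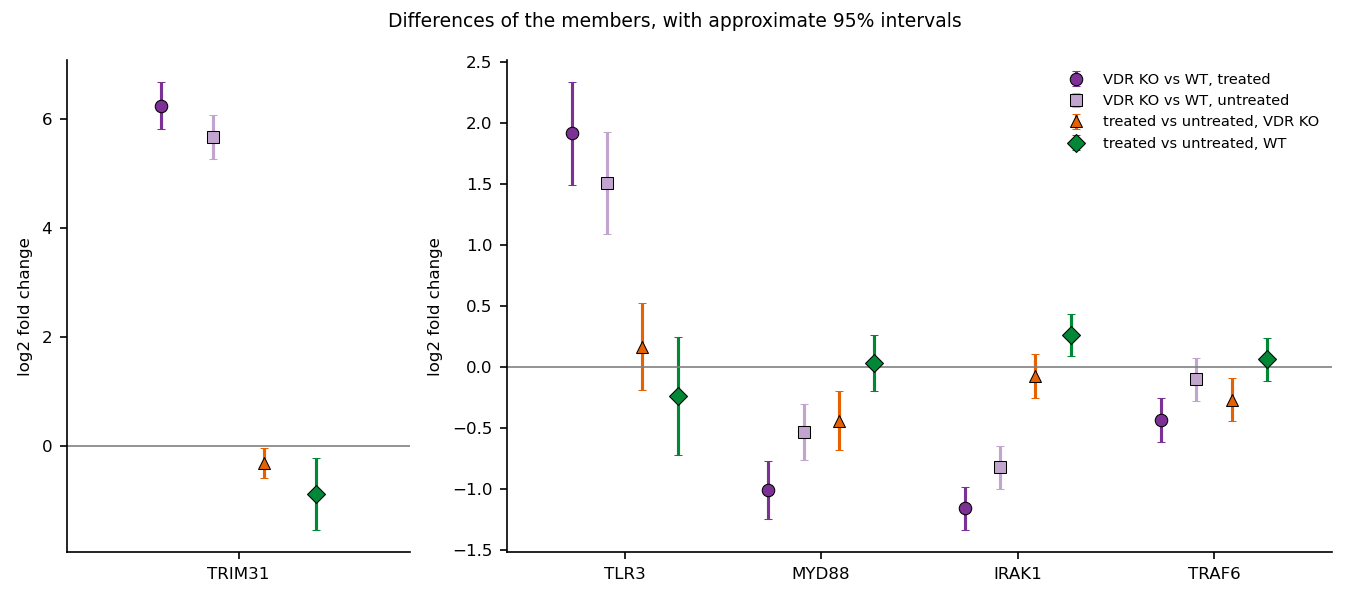
Log2 fold change of TRIM31 (left, its own axis) and of TLR3, MYD88, IRAK1 and TRAF6 (right) for VDR KO against WT cells and for treated against untreated cells, with approximate 95% intervals. TRIM31 sits at 6.25 and 5.68 between genotypes, while the 2 treatment changes of every gene shown lie between -0.89 and 0.26.

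The rest of the pathway was followed through lists of 87 genes that act around the members, of which the table held 66 and 63 were tested. Between VDR KO and WT cells, 54 of the 63 passed the edgeR test treated (29 higher, 25 lower, 85.7% against 75.9% of all genes) and 46 untreated (26 higher, 20 lower, 73.0% against 69.7%). These lists, too, were drawn up with results of these libraries known, so the shares are a description. The values that follow are log2 fold changes of untreated VDR KO against untreated WT cells, and each of these genes passed unless said otherwise. Counts for a list carry in brackets the share of its tested genes that passed. For all genes that share was 69.7%, with 35.5% higher and 34.2% lower.

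Among other TLRs, TLR9, a sensor of DNA in endosomes, was lower (-0.76 ± 0.13), and TLR5, the flagellin receptor, did not pass (-0.29 ± 0.15, adjusted p = 0.100, edgeR). Of 5 trafficking and accessory genes tested, 2 were higher and 1 lower (60.0%). UNC93B1, the chaperone that carries TLR3 and TLR9 to endosomes, averaged 45.3 CPM in VDR KO and 92.5 CPM in WT cells (-1.03 ± 0.10), so it was lower where TLR3 was higher. CNPY4 (1.60 ± 0.21) and HMGB1 (0.55 ± 0.07), a nuclear protein that can act as a danger signal, were higher.

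Of 18 other adaptors and kinases, 8 were higher and 4 lower (66.7%). IRAK4, the kinase that acts on IRAK1, was higher (0.85 ± 0.11), while TICAM1, the adaptor of TLR3 (-0.61 ± 0.08), TRAF3 (-0.83 ± 0.08) and TAB1 (-0.49 ± 0.07) were lower. Of 11 brakes on the signal, 6 were higher and 3 lower (81.8%). NFKBIA, the inhibitor that holds NF-kB in the cytoplasm, averaged 193 CPM in VDR KO and 60.9 CPM in WT cells (1.67 ± 0.08). TRIM38 (1.39 ± 0.10) and PELI1 (1.04 ± 0.09) were higher, and TOLLIP, which restrains IRAK1, was lower (-1.19 ± 0.10).

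Of 9 transcription factors at the end of the pathway, 1 was higher and 5 lower (66.7%). IRF7 (-1.24 ± 0.08) and IRF5 (-0.70 ± 0.11), which drive interferon and cytokine genes, and the NF-kB subunits RELB (-1.03 ± 0.10) and RELA (-0.79 ± 0.08) were lower. Of 6 cytosolic sensors and partners, 3 were higher and 2 lower (83.3%). CASP1 (1.57 ± 0.15), the protease of inflammasomes, and DDX58 (1.10 ± 0.12), the RNA sensor RIG-I, were higher, and PYCARD (-1.12 ± 0.13) and MAVS (-0.37 ± 0.06) lower. Of 9 genes of the interleukin 1 family, 4 were higher and 4 lower (88.9%). Among them IL18 (1.51 ± 0.07), IL1A (1.62 ± 0.18) and IL18R1 (0.74 ± 0.11) were higher, and IL1RL2 (-0.74 ± 0.11) lower. IL1RL1, the receptor of interleukin 33, which was singled out after its values were seen, averaged 0.588 CPM in VDR KO and 13.7 CPM in WT cells (-4.51 ± 0.74). Near TRIM31 on chromosome 6, TRIM26 (0.60 ± 0.08) and TRIM27 (0.24 ± 0.08) were higher and TRIM39 did not pass (-0.14 ± 0.10, edgeR adjusted p = 0.259).

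In treated against untreated WT cells 21 of 63 passed the edgeR test, 11 higher and 10 lower (33.3%). Of all genes 24.5% did (11.5% higher, 13.0% lower). Of the 9 interleukin 1 family genes, 3 rose and 5 fell, with IL1A (-1.26 ± 0.21), IL1B (-0.94 ± 0.14) and IL18 (-0.46 ± 0.07) falling and the receptor IL1R1 rising (0.82 ± 0.15). HSP90B1 (0.78 ± 0.09) and CNPY3 (0.45 ± 0.07), chaperones that fold TLRs, rose, as did IRF3 (0.42 ± 0.09). TLR5 fell (-0.45 ± 0.16, adjusted p = 0.0479). In VDR KO cells 1 of 63 passed (1.59% against 2.55%), TNFAIP3, a deubiquitinase that restrains NF-kB (-0.32 ± 0.07, adjusted p = 0.0329). No pathway gene passed there without any 1 VDR KO library other than replicate 2 of the untreated group, without which 2 passed. Over all 63 genes the median log2 change was -0.07 in WT and 0.02 in VDR KO cells, against 0.00 over all genes in both.

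**Figure D5:**
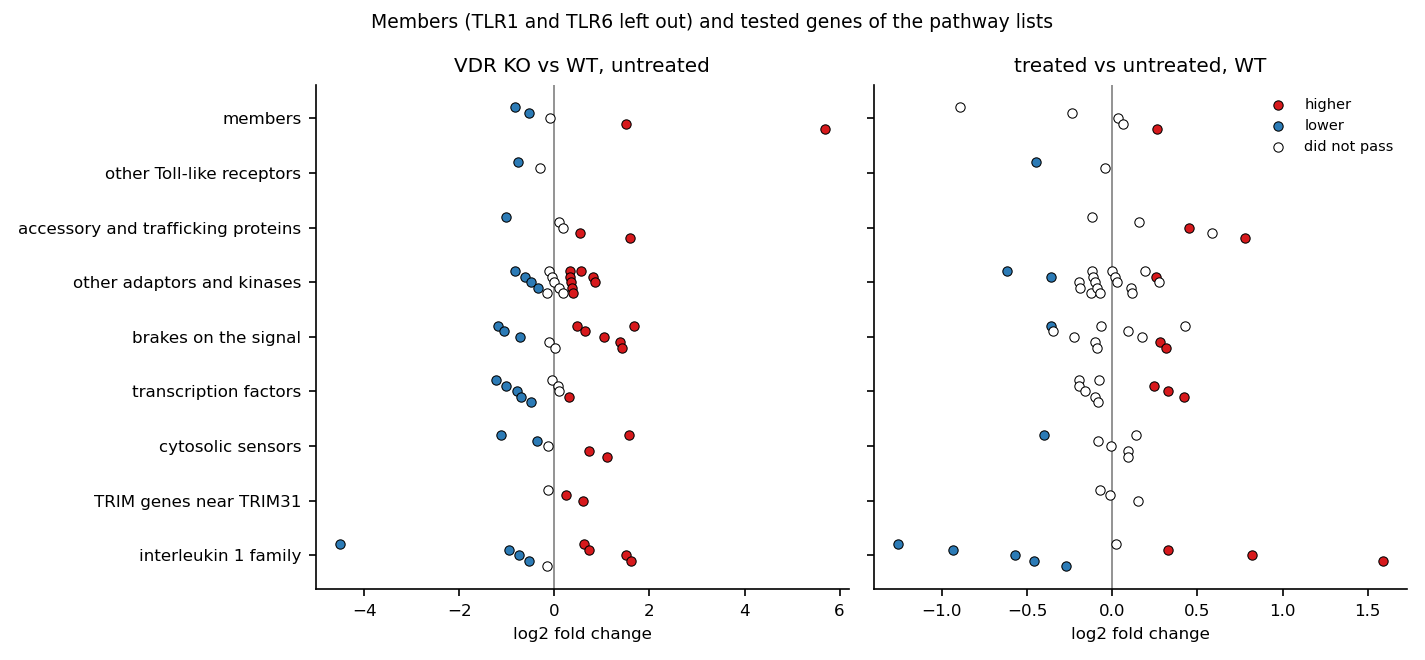
Log2 fold changes of the members, without TLR1 and TLR6, and of the tested pathway genes by list, for untreated VDR KO against untreated WT cells (left) and for treated against untreated WT cells (right). Each point is a gene, red where higher, blue where lower and white where it did not pass at an adjusted p below 0.05. TRIM31 lies far to the right of all other points in the left panel, at 5.68.

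In the authors' deposited table of gene ontology terms for genes higher in untreated VDR KO cells, TLR1, TLR3 and TLR6 were listed under regulation of defense response, with 162 genes and an adjusted p of 0.00799 by the authors' calculation. In the authors' deposited table for treated cells the same receptors stood under regulation of innate immune response (125 genes, the authors' adjusted p = 0.0429). In the authors' deposited table of genes lower in treated VDR KO cells, IRAK1 and TRAF6 stood under receptor complex (91 genes, the authors' adjusted p = 0.00864). TLR1 and TLR6, with their equal counts, entered these terms as 2 genes. Which genotype was higher in each table was read from the fold changes of the members listed in it. TRIM31 was in none of the terms of the 7 authors' deposited tables examined, and those for treatment held no member.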

How the data were processed

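Total RNA of 12 HaCaT libraries, 3 in each of 4 groups, was grouped by the labels. The authors deposited raw read counts per gene and library, and a second deposited table of CPM, which equals each count divided by its column's total to within 0.005. The authors' deposited gene ontology tables hold an adjusted p-value and, as other values, the number of listed genes per term, per the file headers. The submitters' processing notes name the aligner BWA 0.5.9 and, as the build, mm9, which is from mouse. Human IDs in the table go against that, and the sources used here name neither the annotation nor the counter. Genes were placed on GRCh38 by looking up their IDs in GENCODE v29, where 15524 of 16271 were found. Sequences come from RefSeq (GRCh38.p14) and GENCODE v29 transcripts.

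The main test was edgeR's quasi-likelihood F test (edgeR 4.0.16, R 4.3.3, robust) over all 12 libraries, with TMM factors of 0.950 to 1.06. It covered 14676 genes kept by filterByExpr, and 1595 were set aside. It used Benjamini-Hochberg adjustment and calls at an adjusted p below 0.05. An SE is a log2 fold change's size over the square root of F. All 7 members passed the filter. The 5 comparisons were genotype in each treatment, treatment in each genotype and the difference of the treatment responses. Genes are named as all listed members in the table, at most 4 genes per pathway list and comparison with the smallest adjusted p, and the 5 genes with a mean of at least 1 CPM most like TRIM31 or TLR3. The genes of miR-146a, IL1RL1, the extremes among TRIM genes and, for the difference, IL1R1 were added after their values were seen. CYP24A1 and VDR were examined against the labels. Members and lists were chosen with earlier results of these data known. Alternatives were DESeq2's size factors, library size alone, other filters, DESeq2 1.42.0, limma 3.58.1 on log2 of deposited CPM plus 1, the compared groups alone, a replicate block, merged equal-count genes, stricter thresholds and each library left out. The fits were tested on simulated data.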

Additional observations from a re-analysis of the deposited data

Results flagged for a closer look

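The response to the hormone differed between VDR KO and WT cells for MYD88 and for 20 of the 63 tested genes of the pathway lists, by edgeR's quasi-likelihood test of the difference itself with Benjamini-Hochberg adjustment over 14676 genes, where 26.3% of all genes tested passed. Members and lists were chosen with results of these libraries known, so these calls are a description. Values are the log2 response in VDR KO cells minus that in WT cells. MYD88, the adaptor of most TLRs, had -0.48, with a response of -0.44 in VDR KO cells and 0.04 in WT cells. Its adjusted p was 0.0472, and the call was lost in 12 of 20 alternatives, among them DESeq2 and any 1 VDR KO library left out.

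Cytokines of the interleukin 1 family had positive differences, IL1A at 1.32, IL1B at 1.22 and IL18 at 0.59, as did the receptor subunit gene IL1RAP (0.39), and the receptor gene IL1R1, named here after its values were seen, had -0.70. In VDR KO cells the response was 0.07 for IL1A and 0.28 for IL1B, against -1.26 and -0.94 in WT cells. Chaperones that fold TLRs had negative differences, HSP90B1 at -1.05 and CNPY3 at -0.60. So did the interferon regulatory factors IRF5 (-0.68), IRF3 (-0.57) and IRF7 (-0.46). Among brakes on the signal the difference was -0.83 for SOCS1, -0.60 for TNFAIP3, -0.47 for NFKBIA and 0.34 for TNIP1. Among kinases and adaptors it was 0.47 for CHUK, 0.40 for IKBKE, -0.37 for TICAM2 and -0.34 for IKBKG. It was 0.61 for DDX58, a cytosolic RNA sensor, and 0.33 for the NF-kB subunit gene NFKB1.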

How the results depend on the processing

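Replicate numbers did not pair the libraries. Same-numbered libraries of compared groups correlated at -0.175 to 0.121, and 2 of 12 libraries correlated best with their own number. As an alternative, the replicate block left 0 members called for the difference of responses, 0 pathway genes in treated VDR KO cells and 143 genes in all there.

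Between VDR KO and WT cells, members' calls were the same under every scaling, filter and test run and without any 1 library. The exception was a 2-fold minimum, which left 5 of 6 members treated and 3 of 5 untreated. Since the list may have been chosen on these differences, nothing is read from this. TRAF6 untreated turned to 0.020 with library size alone and 0.029 with limma. For the difference of responses (1 member called), the count was 0 with DESeq2's size factors, DESeq2, an adjusted p below 0.01 or a 2-fold minimum, and 2 with library size alone or limma; TLR6 turned to 0.35 with limma. For treatment of WT cells (1 member), it was 2 with DESeq2 and 0 with the compared groups alone, an adjusted p below 0.01 or 2-fold. For treatment of VDR KO cells (0 members), it was 1 with library size alone or limma and 2 with the compared groups alone.

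For pathway genes, treatment of WT cells called 21, but 12 with the compared groups alone or an adjusted p below 0.01 and 2 at 2-fold. Treatment of VDR KO cells called 1, but 3 with DESeq2, 7 with the compared groups alone and 0 at the stricter thresholds. At 2-fold, 19 were called between treated and 16 between untreated genotypes, and 3 for the difference, which had 11 at an adjusted p below 0.01. Over all genes, treatment of WT cells called 3602, but 2218 with the compared groups alone, 1810 at an adjusted p below 0.01 and 134 at 2-fold. Treatment of VDR KO cells called 374, but 906 with DESeq2, 1775 with the compared groups alone, 36 at an adjusted p below 0.01 and 11 at 2-fold. At 2-fold, 3956 genes were called between treated and 2840 between untreated genotypes and 389 for the difference, which had 1921 at an adjusted p below 0.01 against 3857. Stricter thresholds lower counts by construction, and fits of the compared groups alone hold fewer libraries. The causes of the other changes were not tested.

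Leaving out 1 library gave 6 members called between treated and 5 between untreated genotypes, 0 to 3 for the difference, 0 for VDR KO treatment and 0 to 2 for WT treatment. For pathway genes the counts were 51 to 54, 43 to 49, 17 to 22, 0 to 2 and 12 to 21, and over all genes 10559 to 10735, 9521 to 10706, 2797 to 4322, 9 to 278 and 2112 to 3795, in the same order. The response of WT cells ranged from -0.019 to 0.16 for TRAF6, turning sign without replicate 1 of the untreated group, and from -0.070 to 0.13 for MYD88, turning sign without replicate 3 of either WT group. Of the members' values under all alternatives, 442 kept direction and side of the threshold, 17 lost and 12 gained the call, and 6 turned sign. TLR1 and TLR6 in WT cells were limited by depth, at 0 to 1 counts per library.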
